A study of Mus musculus with 7 samples.

Results

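Megakaryocyte-gated cells were single bone marrow cells of the LSK sort in which RNA of platelet and megakaryocyte genes was detected. A deposited cell column was kept with at least 1000 UMIs (counted RNA molecules), at least 500 detected genes and at most 10% of its UMIs from mitochondrial genes. A kept cell entered the gate with at least 1 UMI of Pf4, a UMI in at least 3 of the 10 genes Pf4, Gp9, Cavin2, Rab27b, Treml1, Gp1bb, Gp5, Gp6, Itga2b and Itgb3, and 0 UMIs of the basophil and mast cell genes Ms4a2 and Mcpt8. The rule took 961 of 24430 kept cells, out of 36465 cell columns in 7 libraries. The cells were thus chosen by their UMIs of these genes, so the levels of the 10 gate genes, and every difference between gated and other cells, are given as a description with no test.

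LSK cells are the lineage-negative, Sca-1 and Kit positive fraction of mouse bone marrow, which holds blood stem cells and early progenitors. The 3 knockout-labelled libraries came from mice of the genotype "129S1/C57Bl/6, B4-/-", titled B4galt1 KO, and the 4 libraries titled WT from mice labelled 129S1/C57Bl/6. The cells were flushed from tibia and femur, red cells were lysed, and the 10X Genomics Single Cell 3′ v2 kit was named for every library. The series design calls the knockout full, and the labels used here give no age, sex, number of mice per library or deleted part of the gene. P-values between labels therefore measure the spread between libraries, which may be partly technical.

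Megakaryocytes are the bone marrow cells that shed platelets. They arise from progenitors shared with red cells and also, along a more direct route, from stem cells that already express platelet genes. Their maturation is driven by GATA1 with its cofactor FOG1 and by the ETS factor FLI1, and it brings integrin αIIbβ3, the GPIb-IX-V complex, granules loaded with platelet factor 4 and von Willebrand factor, and DNA replication without cell division. B4galt1 adds galactose to N-linked sugar chains, and the series title joins glycosylation to the megakaryocyte fate of stem cells through Wnt and the mucin Muc13.

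Pf4, Gp9, Cavin2 and Treml1 are shown by the 250 bases that precede their RefSeq transcription start (build GRCm38.p6), since UMIs of these genes together define the cells described here. Pf4 encodes platelet factor 4, a chemokine of the platelet granule, and its stretch is chr5:90772185-90772434 on the plus strand. Gp9 encodes a subunit of the GPIb-IX-V receptor of von Willebrand factor, at chr6:87777820-87778069 on the plus strand. Cavin2, a coat protein of caveolae, has chr1:51288876-51289125 on the plus strand, and Treml1, a receptor stored in platelet granules, chr17:48359666-48359915 on the plus strand. Capitals mark GATAA, the core read by GATA factors, and GGAAG, a core read by ETS factors, on either strand (TTATC and CTTCC when read on the printed strand).
Pf4: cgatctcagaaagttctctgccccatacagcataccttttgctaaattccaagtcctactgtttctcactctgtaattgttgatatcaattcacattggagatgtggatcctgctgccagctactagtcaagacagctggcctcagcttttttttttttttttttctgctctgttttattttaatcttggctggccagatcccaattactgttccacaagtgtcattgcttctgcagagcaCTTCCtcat
Gp9: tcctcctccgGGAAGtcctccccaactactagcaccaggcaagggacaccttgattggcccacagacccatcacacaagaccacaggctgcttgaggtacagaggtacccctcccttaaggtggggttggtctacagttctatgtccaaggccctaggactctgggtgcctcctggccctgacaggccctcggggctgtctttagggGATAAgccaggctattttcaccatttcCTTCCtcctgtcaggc
Cavin2: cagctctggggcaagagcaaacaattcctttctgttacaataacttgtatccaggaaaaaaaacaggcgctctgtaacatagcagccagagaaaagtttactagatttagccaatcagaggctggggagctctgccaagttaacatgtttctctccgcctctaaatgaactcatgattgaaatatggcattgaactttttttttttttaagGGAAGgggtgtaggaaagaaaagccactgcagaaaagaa
Treml1: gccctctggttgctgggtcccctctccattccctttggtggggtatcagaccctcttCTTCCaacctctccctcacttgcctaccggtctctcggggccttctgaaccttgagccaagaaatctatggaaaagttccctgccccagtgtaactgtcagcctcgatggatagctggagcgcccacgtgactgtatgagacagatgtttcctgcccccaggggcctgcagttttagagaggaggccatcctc
RefSeq promoters were matched for 8 of the 10 gate genes. Of these, 3 held GATAA within the 250 bases, 7 held GGAAG and 2 held both, Gp9 and Gp5. Among 32851 RefSeq promoters of the same length, 22.6% held GATAA, 64.1% held GGAAG and 13.2% held both. A match describes letters and is no evidence of binding.

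The libraries held 14970791 to 89747946 UMIs, and 1172 to 8862 of their cells were kept. Knockout replicate 3 and WT replicate 4 stood apart: the opening 6 bases of their cell codes took 480 sequences (list B), those of the other 5 libraries 900 to 958 (list A), and 96.2% to 98.3% of their columns were kept against 32.4% to 49.9%. They held 516 and 371 of the gated cells. At most 68 kept cell codes, and at most 1 gated code, were shared by any of the 21 library pairs. Xist stood at 1847 to 2909 counts per 1000000 UMIs (CPM) in the other kept cells of knockout replicates 1 and 2 and WT replicates 1 and 2 and at no more than 0.619 CPM in knockout replicate 3 and WT replicates 3 and 4, where the Y-linked Ddx3y stood at 57.2 to 79.0 CPM.

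The targeted gene B4galt1 (chr4:40804602-40854005, minus strand, GRCm38) did not mark the label in gated cells. Its normalised CPM (edgeR, TMM) was 51.4, 21.4 and 32.9 in knockout replicates 1, 2 and 3 and 54.4, 84.8, 33 and 38.9 in WT replicates 1 to 4. The groups overlapped, edgeR gave a log2 difference of -0.20 with SE 0.29 and an adjusted p of 0.999, and the value of knockout replicate 2 rests on 1 UMI. Counts at the 3′ end need not show a deletion elsewhere in the gene, so the libraries are called by their labels throughout.

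The share of gated cells was highest in the 2 list B libraries, 1 of each label. Knockout replicates 1, 2 and 3 held 36 of 3072 kept cells (1.17%), 5 of 1725 (0.290%) and 516 of 6855 (7.53%). WT replicates 1 to 4 held 8 of 1244 (0.643%), 8 of 1172 (0.683%), 17 of 1500 (1.13%) and 371 of 8862 (4.19%). Knockout replicate 3 and WT replicate 4 were the 2 highest, and the 5 list A libraries of both labels overlapped. The exact 95% binomial interval was 6.91% to 8.18% in knockout replicate 3 and 3.78% to 4.62% in WT replicate 4, and covers counting error only.

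**Figure D1:**
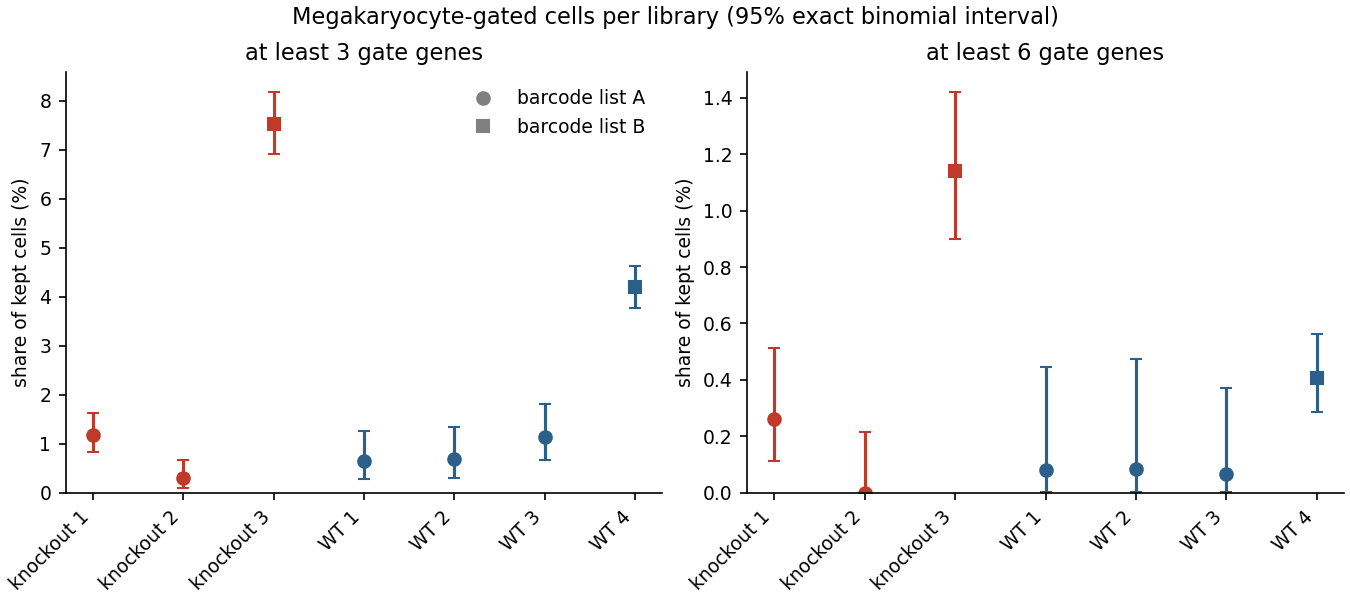
Share of kept cells inside the megakaryocyte gate in each library (y axis, %), with at least 3 gate genes (left) and at least 6 (right). Points are libraries, red for knockout and blue for WT, circles for barcode list A and squares for list B, with exact 95% binomial intervals; knockout 3 is highest in both panels, at 7.53% and 1.14%.

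The mean share was 3.00% ± 3.95 (SD, n = 3) under the knockout label and 1.66% ± 1.70 (SD, n = 4) under WT. The exact two-sided permutation test of the library shares (35 arrangements of the labels) gave p = 0.600, where the smallest possible value is 0.0286. Without knockout replicate 3 the difference of 1.34 percentage points turned to -0.930. Within list A the means were 0.731% (n = 2) and 0.820% (n = 3), a difference of -0.0888 points (exact permutation p = 1.00, smallest possible 0.10). Within list B there was 1 library per label and no test, and the share of knockout replicate 3 was 1.80 times that of WT replicate 4. In the 4 libraries with Xist the means were 0.731% and 0.663% (n = 2 each, exact permutation p = 1.00, smallest possible 0.167). In the 3 libraries with Y-linked genes, knockout replicate 3 stood at 7.53% and WT replicates 3 and 4 at a mean of 2.66% (n = 2), a difference of 4.87 points with no test, and the barcode list differs within this set too.

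Cells with many gate genes showed a wider gap within list B. At least 6 gate genes were detected in 78 cells of knockout replicate 3 (1.14%) and 36 of WT replicate 4 (0.406%), a ratio of 2.80. The other libraries held 8, 0, 1, 1 and 1 such cells, in knockout replicates 1 and 2 and WT replicates 1, 2 and 3. The 0 of 1725 cells in knockout replicate 2 allows a share of up to 0.174% by a limit of 3 counts, and the two-sided exact interval reaches 0.214%. After each cell was thinned to 3000 UMIs (47 and 169 shallower cells left out), knockout replicate 3 held 1.87% gated cells and WT replicate 4 held 0.771%, a ratio of 2.42, and list A libraries 0.0640% to 0.339%. Over all 7 libraries the share with at least 6 genes had p = 0.457 and the thinned share p = 0.543 in the same exact permutation test.

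Free RNA can place a Pf4 UMI in a cell that does not make it, so cells with both Dntt and Flt3 and no UMI of Gata1 or Mecom, which should lack it, were used as a background. In knockout replicate 3, 12.8% of 600 such cells (median 10983 UMIs) held a Pf4 UMI, against 23.7% of all kept cells (median 9842 UMIs). In WT replicate 4 it was 4.60% of 1131 (median 8334 UMIs) against 18.9% (median 8046 UMIs), and in the list A libraries 0% to 1.75% of 53 to 171 cells. Only 0.50% and 0.177% of the Dntt and Flt3 cells of the 2 list B libraries met the whole gate, below their 7.53% and 4.19%. This background left out cells with a UMI of Gata1 or Mecom, so its lower share is fixed in part by that choice and does not measure free RNA alone. Among cells with at least 3 granule protein genes, 3.94% and 4.26% met the gate, with median depths of 13873 and 13245 UMIs, and in WT replicate 4 that share was no lower than in all kept cells. Such cells were 105 of the 516 and 81 of the 371 gated cells of these 2 libraries. They were 21 of the 36 gated cells of knockout replicate 1, 3 of the 8 of WT replicate 2, and 0 in knockout replicate 2 and WT replicates 1 and 3.

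Nearly every second gated cell passed at the lowest number of genes. Of the 961 cells, 462 (48.1%) had exactly 3 gate genes, 236 had 4, 138 had 5, 70 had 6, 26 had 7, 17 had 8, 10 had 9 and 2 had all 10. Just outside the gate stood 988 Pf4-positive cells with 2 gate genes. In knockout replicate 3 the cells with 3 genes held 209 CPM of Pf4, 96.8 CPM of Itga2b and 86.3 CPM of Gp9, and those with 2 genes 147, 40.4 and 42.8 CPM. In WT replicate 4 the values were 172, 73.7 and 68.9 CPM inside and 185, 34.4 and 43.9 CPM outside, so Pf4 itself did not separate the neighbours there.

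**Figure D2:**
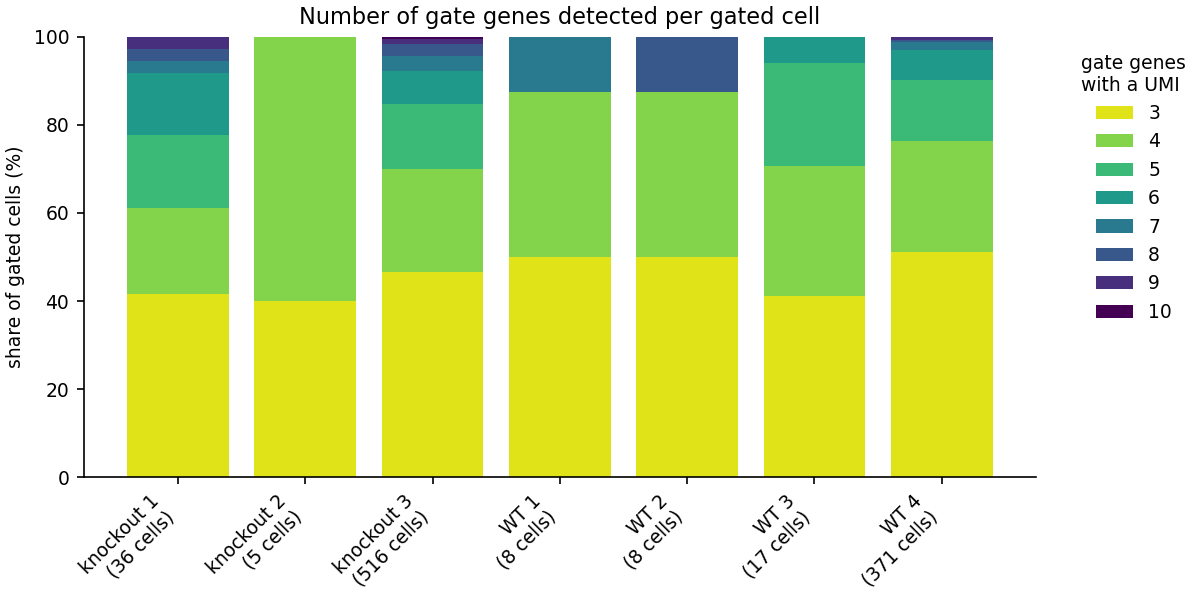
Gated cells of each library split by how many of the 10 gate genes had a UMI (y axis, share of the library's gated cells in %; colours, 3 to 10 genes). Cells with 3 genes make up 40.0% to 51.2% in every library, and cells with 8 to 10 genes a thin top layer.

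Pf4 RNA was concentrated in few cells. A single Pf4 UMI was all that 203 of 516 gated cells of knockout replicate 3 (39.3%) and 160 of 371 of WT replicate 4 (43.1%) held, and the median in both was 2 UMIs. The highest cells held 2989 and 1820 Pf4 UMIs, and the 10% of cells with the most held 92.7% and 90.2% of all Pf4 UMIs in the gate. In WT replicate 2, 1 cell carried 632 of 642 Pf4 UMIs, and in knockout replicate 1 the top cell carried 365 of 755. The CPM of Pf4 over a library's gated cells (1508, 128 and 4312 in knockout replicates 1, 2 and 3; 143, 4509, 101 and 1626 in WT replicates 1 to 4) thus follows single cells in the small libraries.

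Other gate genes differed in how often they were seen. Itga2b, the αIIb integrin chain, had a UMI in 77.9% of gated cells of knockout replicate 3 and 68.5% of WT replicate 4, and Gp9 in 79.7% and 74.7%. Rab27b, a small GTPase of granule docking, was seen in 56.2% and 58.0%, and Cavin2 in 37.0% and 37.5%. Treml1 was seen in 24.8% and 22.4%, and Itgb3, the β3 chain, in 24.6% and 16.2%. In these 2 libraries Gp5 was seen in 7.36% and 7.55%, Gp1bb in 2.71% and 1.62%, and Gp6, the collagen receptor, in 1.94% and 0.809%. In the list A libraries, with 5 to 36 gated cells, Gp5 was seen in 12.5% to 37.5%, Gp1bb in 0% to 20% and Gp6 in 0%. In other kept cells Itga2b was seen in 17.7% and 10.9%, and Cavin2 in 1.85% and 1.84%.

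Gated cells with few and with many gate genes differed in stem cell and megakaryocyte RNA, described here for knockout replicate 3 and WT replicate 4, which had 240, 198, 56 and 22 cells and 190, 145, 32 and 4 cells with 3, 4 to 5, 6 to 7 and 8 to 10 gate genes. The median depth rose along it, from 10013 to 30784 UMIs in knockout replicate 3 and from 11374 to 39122 in WT replicate 4. A deeper cell more easily shows more genes, so depth moved with the number of gate genes, and its part in the values below was not tested beyond the thinned values given next. In cells thinned to 3000 UMIs the summed level of the 17 receptor genes still went from 932 CPM (73 cells) to 1379 (44 cells) and 3067 (10 cells with 6 to 7 genes) in knockout replicate 3, and from 732 (41 cells) to 1240 (25 cells) in WT replicate 4, which kept 1 cell above that. The 12 stem cell genes went from 1014 to 932 and 900 CPM and from 1081 to 840 CPM, a smaller difference, and the 18 granule genes from 2005 to 2091 and 2800 CPM and from 2122 to 1973 CPM, so the 2 libraries differed in direction there.

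Most of the platelet receptors named here were several times higher at the last step than at the first. Counts of list members that were higher or lower, here and for the lists below, describe the members only. The share of all genes higher at the last step was not computed, so the counts are no result about the lists. From the list of 17 receptors, 16 were higher and 1 lower at the last step in knockout replicate 3. In WT replicate 4, 12 were higher and 3 lower. Cd9, a tetraspanin of megakaryocytes and platelets, stood at 98.9 CPM in other kept cells of knockout replicate 3 and at 165, 342, 612 and 1741 CPM in the 4 steps. In WT replicate 4 it went from 83.4 to 162, 227, 691 and 1252 CPM. The thrombin receptor F2r went from 37.2 to 147 CPM and from 29.8 to 147 CPM between the first and last step, and F2rl2, of the same family, from 3.16 to 255 and from 2.82 to 122 CPM. F2rl3, also of this family, differed less, with 25.3 and 48.7 CPM in knockout replicate 3 and 25.4 and 30.5 CPM in WT replicate 4. Clec1b, the podoplanin receptor, reached 241 and 122 CPM in the last step after 15.3 and 10.9 in the one before.

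Granule cargo genes differed unevenly along the steps, which are numbers of gate genes and no order in time. The 18 genes summed to 1736, 1791, 1951 and 3349 CPM in knockout replicate 3 and to 1868, 1873, 1975 and 2143 CPM in WT replicate 4. From the list of 18 granule genes, 15 were higher and 3 lower at the last step than at the first in knockout replicate 3. In WT replicate 4, 14 were higher and 4 lower. Vwf, von Willebrand factor, stood at 7.37, 24.1, 112 and 303 CPM along the steps in knockout replicate 3 and at 9.67, 19.2, 61.5 and 232 CPM in WT replicate 4. Ppbp, the platelet basic protein, went from 8.42 to 893 CPM and from 6.04 to 116 CPM, and Serpine2, a thrombin inhibitor, from 0.351 to 448 CPM and from 3.62 to 379 CPM. Mmrn1, multimerin of the granule, went from 27.4 to 111 and from 41.9 to 128 CPM. Angpt1, the angiopoietin ligand of TEK, ran the other way at the end, with 1066 CPM at 3 genes and 613 CPM at 8 to 10 in knockout replicate 3, and 1216 and 501 CPM in WT replicate 4.

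Of 18 signalling genes 15, and of 13 cytoskeletal genes 10, were higher at 8 to 10 than at 3 gate genes in each of the 2 libraries. Stat5a, Stat5b, Sh2b3 and Myh9 were lower at the last step in both, with Stat5a, a signal transducer of cytokine receptors, at 56.1 and 35.3 and at 54.4 and 42.7 CPM. Plek, a main substrate of protein kinase C in platelets, went from 86.7 to 678 CPM and from 161 to 574 CPM, and Pde5a, which breaks down cyclic GMP, from 5.26 to 196 and from 9.26 to 128 CPM. Tuba8, an alpha-tubulin, went from 23.2 to 147 and from 14.5 to 159 CPM, against 4.41 and 4.16 CPM in other kept cells. Tpm4, a tropomyosin of platelet formation, went from 10.2 to 331 and from 18.1 to 147 CPM, most of it in the last step. Tubb1, the beta-tubulin of platelets, stayed at no more than 2.44 CPM in any step of either library, and Mpig6b, a receptor of mature megakaryocytes, at no more than 11.0 CPM.

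**Figure D3:**
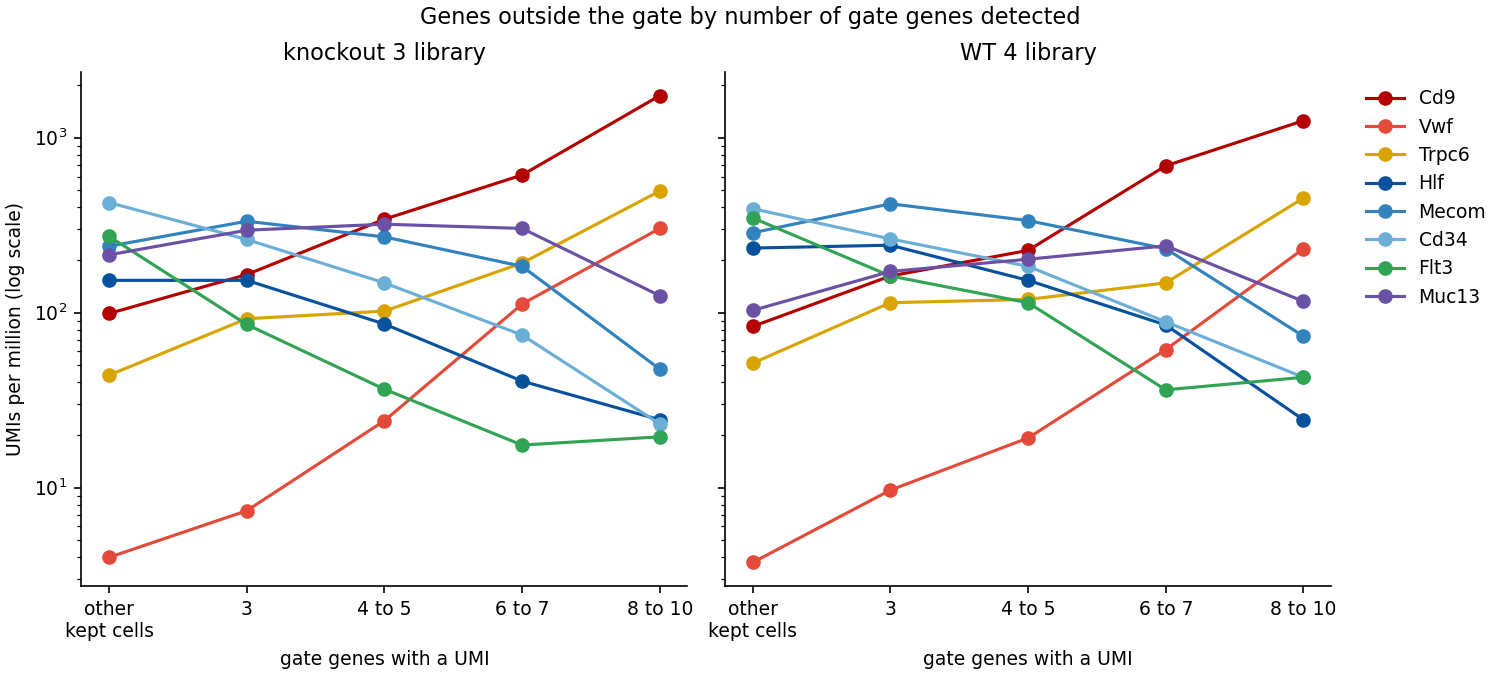
Level (y axis, CPM, log scale) of 8 genes outside the gate in other kept cells and in gated cells with 3, 4 to 5, 6 to 7 and 8 to 10 gate genes, for knockout replicate 3 (left) and WT replicate 4 (right). Cd9, Vwf and Trpc6 go up from left to right, Hlf, Mecom, Cd34 and Flt3 are lower in the last step than at 3 genes, and Muc13 is lower in the last step than in the one before.

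Transcription factors divided along the same steps. From the list of 15, 10 were higher and 5 lower at the last step than at the first in knockout replicate 3. In WT replicate 4, 10 were higher and 4 lower. Fli1 went from 252 to 555 CPM in knockout replicate 3 and from 239.6 to 433 CPM in WT replicate 4, where the step of 6 to 7 genes was highest at 633 CPM. Gata1 went from 41.1 to 99.9 and from 19.3 to 85.5 CPM, and Zfpm1, which encodes FOG1, from 20.4 to 76.7 and from 18.1 to 79.4 CPM. Gata2, the earlier GATA factor, was lower in the last step (133 and 67.2 CPM) than at 6 to 7 genes (219 and 195 CPM). Lyl1, a partner of stem cell factors, went down from 249 to 106 and from 211 to 61.1 CPM.

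Stem cell genes were present at the low end of the gate, and part of their list was lower at the high end. From the 12 genes, 7 were lower and 5 higher at the last step than at the first in knockout replicate 3. In WT replicate 4, 9 were lower and 3 higher. Hlf, a stem cell transcription factor, stood at 153 CPM in cells with 3 gate genes of knockout replicate 3, the same as the 153 CPM of other kept cells, and at 86.1, 40.6 and 24.4 CPM in the later steps. In WT replicate 4 it stood at 243 CPM against 234 CPM outside, and then at 153, 85.0 and 24.4 CPM. Mecom went from 333 to 47.5 CPM and from 419 to 73.3 CPM between the first and last step. The cells with 3 gate genes thus kept the stem cell RNA of the other kept cells, which goes against the word committed for them, and the cells are called megakaryocyte-gated here.

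The 2 proteins that define the sort were low in RNA at the high end. Ly6a, which encodes Sca-1, went from 48.4 to 2.44 CPM in knockout replicate 3 and from 38.7 to 0 CPM in WT replicate 4, and Kit from 176 to 28.0 and from 174 to 48.8 CPM. Cd34 went from 262 to 23.1 and from 264 to 42.7 CPM. Trpc6, a calcium channel listed with the stem cell genes, went the other way, from 92.3 to 496 and from 114 to 452 CPM, and Slamf1 was highest at 6 to 7 genes, with 65.8 and 39.8 CPM.

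The gated cells were set beside the erythroid-leaning cells of the same libraries, which have a Gata1 UMI and at least 2 of 6 red cell genes (180 cells in knockout replicate 3 and 195 in WT replicate 4). Klf1, the erythroid Krüppel factor, stood at 14.5 and 14.9 CPM in gated cells and 62.4 and 192 CPM in erythroid-leaning cells, and Car1 at 3.45 and 66.1 against 620.2 and 2908 CPM. Klf1 and Car1 are both among the 6 genes of that rule, so their differences are fixed in part by it and do not show that red cell genes part the 2 gates. Cd9, which neither rule used, stood at 465 and 275 CPM against 192 and 93.0, and Vwf, likewise unused, at 60.2 and 25.5 against 7.49 and 5.09 CPM. In gated cells with only 3 gate genes Cd9 stood at 165 and 162 CPM and Vwf at 7.37 and 9.67 CPM. In knockout replicate 3 these cells were thus not above the erythroid-leaning cells in either gene, while in WT replicate 4 they were. Haemoglobin Hba-a1 was at 3.04 CPM in gated cells of knockout replicate 3. Its 339 CPM in WT replicate 4 came mostly from 1 cell with 1713 Hba-a1 UMIs.

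Granulocyte, monocyte and lymphoid markers were lower in the gate than outside in all 7 libraries, and other lists were not. The summed level of the 14 granulocyte and monocyte genes was 149 to 1476 CPM in gated cells of the knockout libraries and 275 to 723 CPM in those of WT, against 2012 to 15356 CPM in other kept cells. The 13 lymphoid genes summed to 85.2 to 344 and 132 to 479 CPM, against 660.3 to 1247 CPM. The 19 erythroid genes summed to more in gated than in other cells in 6 of 7 libraries, with 807, 873 and 1573 against 368, 288 and 934 CPM in knockout replicates 1, 2 and 3 and 979, 576, 1024 and 3284 against 457, 622, 588 and 1425 CPM in WT replicates 1 to 4. The sum in WT replicate 4 was raised by haemoglobin in cells with 3 gate genes, where Hbb-bs stood at 1423 and Hba-a1 at 692 CPM. The list summed to 4606 CPM there, and to 2369.7, 1831 and 659 CPM in the later steps. The 10 basophil and mast cell genes, of which the rule removed Ms4a2 and Mcpt8, summed to 24.0 to 63.9 and 28.1 to 66.0 CPM in the gate against 23.7 to 185 CPM outside, and were higher in the gate in knockout replicate 2 and WT replicates 1 and 3. The 10 macrophage and endothelial genes summed to 12 to 21.3 and 28.7 to 49.2 CPM against 19.5 to 39.2 CPM outside, were higher in the gate in knockout replicate 2 and WT replicates 1 and 2, and had 4 to 9 members at 0 in each library's gate. Among gated cells of knockout replicate 3 and WT replicate 4, 57 and 54 held an Elane UMI and 43 and 58 a Dntt UMI, and 36 and 58 lay above the 95th percentile of UMIs of their library. No doublet caller was run, and the part of doublets was not tested.

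Outside the gate genes, 9172 genes were compared between gated and other kept cells in the 4 libraries with at least 10 gated cells, on the log2 scale of CPM plus 1. At least 2-fold higher levels in each of the 4 libraries were found for 30 genes (0.327%), and at least 2-fold lower levels for 58 (0.632%). Leaving out WT replicate 3, with 17 gated cells, gave 80 higher genes. After thinning to 3000 UMIs 14 were higher, of which 11 were among the 30.

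Apoe, apolipoprotein E, had the highest smallest ratio among genes outside the gate with at least 50 CPM over the pooled gated cells. It stood at 236 CPM in gated and 60.5 CPM in other cells of knockout replicate 1, at 219 and 77.9 in knockout replicate 3, at 177 and 29.0 in WT replicate 3 and at 213 and 57.5 in WT replicate 4. Its smallest log2 ratio was 1.48. Mfsd2b, the sphingosine-1-phosphate exporter of red cells and platelets, had ratios from 1.41 to 3.53, and Tuba8 from 1.27 to 3.61. Gata2 (1.13 to 1.68), Gfi1b, a repressor needed for megakaryocyte and red cell development (1.05 to 2.64), and Zfpm1 (1.02 to 2.45) were the 3 transcription factors of the list that were 2-fold higher throughout.

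The remaining genes of the 20 with the highest smallest ratio held adhesion, calcium and cyclic nucleotide signalling genes. Prkg1, a cyclic GMP-dependent kinase, ranged from 1.08 to 2.50, Plcb1, a phospholipase C, from 1.11 to 2.98, and Inpp4b, a phosphoinositide phosphatase, from 1.13 to 2.68. Tgfbr3, the betaglycan co-receptor of TGF-β, ranged from 1.31 to 2.44 and the protocadherin Pcdh7 from 1.37 to 2.54. Slamf1, at a lower level than the 20, ranged from 2.04 to 2.77.

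**Figure D4:**
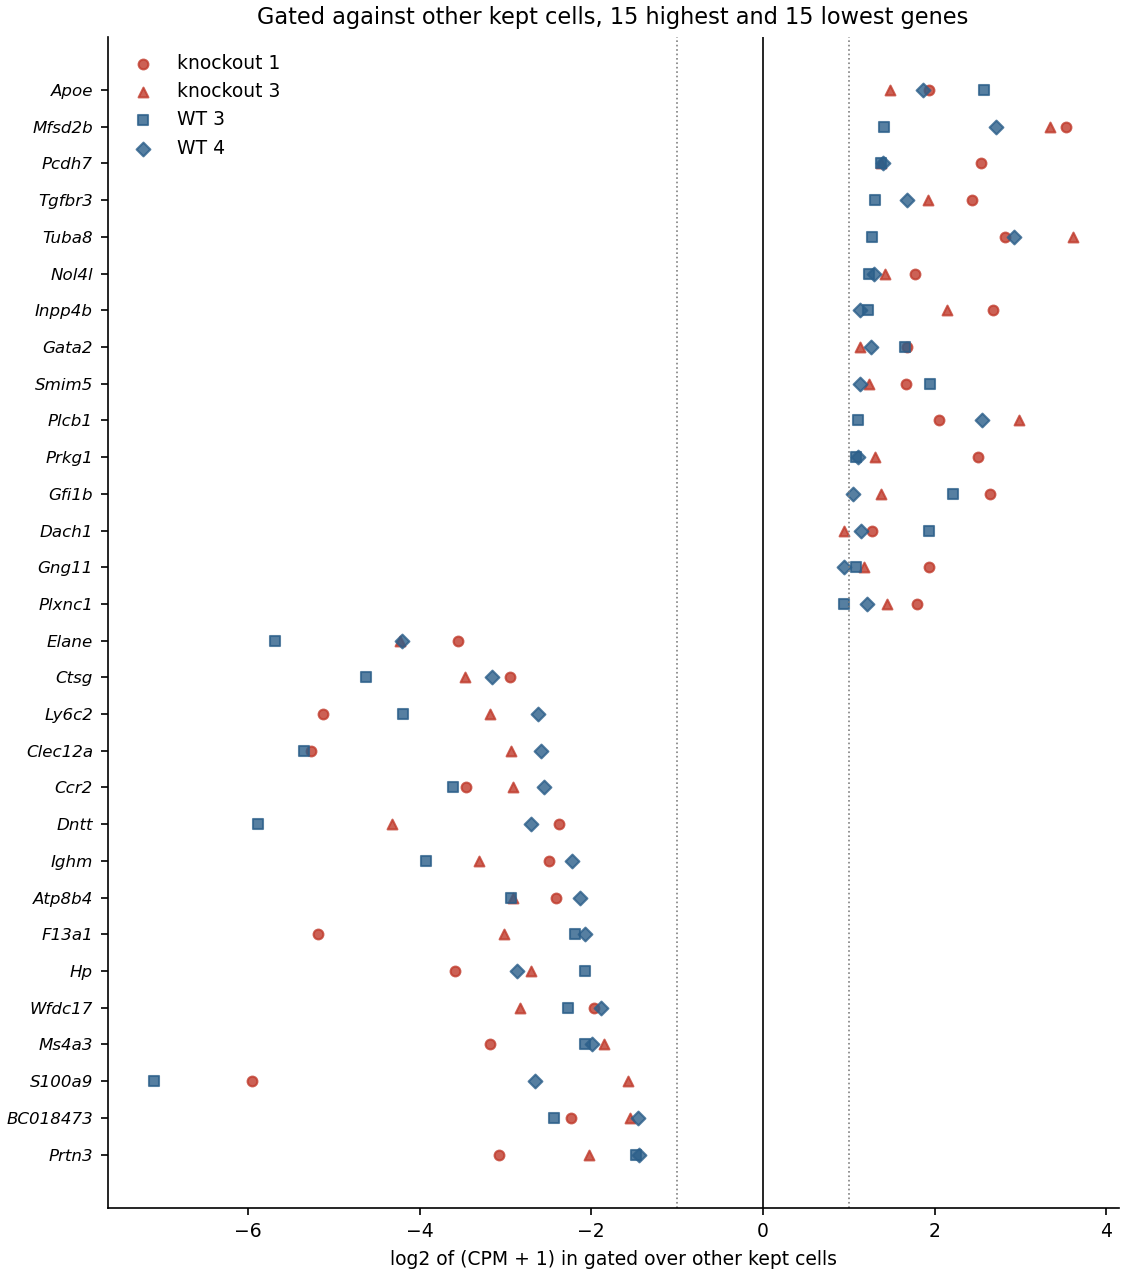
Log2 ratio of CPM plus 1 in gated over other kept cells (x axis) in the 4 libraries with at least 10 gated cells, for the 15 genes with the highest smallest ratio and, chosen in the same way after the values were seen, the 15 with the lowest largest ratio. Points are libraries, red for knockout and blue for WT; dotted lines mark 2-fold, and WT 3 is often the lowest of the upper genes.

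Among the lower genes were those of granulocytes, monocytes and lymphoid progenitors. Elane, neutrophil elastase, had ratios from -5.69 to -3.55, Ctsg, cathepsin G, from -4.63 to -2.95, Ccr2, a monocyte chemokine receptor, from -3.61 to -2.55, and Dntt, the lymphoid DNA polymerase, from -5.88 to -2.38. Mpo, myeloperoxidase, stood at 391, 195, 153 and 148 CPM in gated and 3201, 1147, 381 and 609.7 CPM in other cells of knockout replicates 1 and 3 and WT replicates 3 and 4. Higher levels in every one of the 4 libraries were seen for 17.0% of all genes compared and lower levels for 12%. Of the 14 granulocyte and monocyte genes 12 were lower in every library, with a median log2 ratio of -2.86, and of 7 lymphoid genes compared 5 were (median -1.75), beside a median of 0.04 over all genes.

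Median ratios of the megakaryocyte lists lay above the 0.04 of all genes compared. Higher in every library were 5 of 10 receptor genes compared (median log2 ratio 1.05), 7 of 15 granule genes (0.60), 8 of 17 signalling genes (0.48), 8 of 15 transcription factors (0.43) and 5 of 10 cytoskeletal genes (0.20). Of the stem cell genes 5 of 11 were higher and 0 lower (0.28). Of 42 S phase genes 19 were higher and 0 lower in every library (0.27), and of 51 G2/M genes 25 were higher and 1 lower (0.25). Of 15 Wnt receptor, signal and target genes 0 were higher and 3 lower (-0.10), and of 6 galactosyltransferases 0 were higher and 4 lower (-0.21).

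Some of the sugar chain and mucin genes differed along the steps. Muc13 stood at 214 CPM in other kept cells of knockout replicate 3 and at 296, 320.3, 303 and 125 CPM along the steps, and in WT replicate 4 at 103 CPM outside and 172, 202, 241 and 116 CPM inside. B4galt1 stayed between 18.6 and 39.0 CPM in knockout replicate 3 and between 27.4 and 36.6 CPM in WT replicate 4. St8sia4, a polysialyltransferase, went from 29.5 to 2.44 and from 46.3 to 6.11 CPM, and Lgals1, galectin 1, from 91.2 to 4.87 and from 78.9 to 6.11 CPM. St3gal1, which caps galactose with sialic acid, stood at 83.5 to 101 CPM and 85.5 to 106 CPM.

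At full depth, G2/M RNA was highest in cells with 6 to 7 gate genes. The 52 G2/M genes summed to 5224, 8069, 8334 and 6975 CPM along the steps in knockout replicate 3 and to 5245, 7393, 9066 and 6905 CPM in WT replicate 4, against 5687 and 5419 CPM in other kept cells. In cells thinned to 3000 UMIs they summed to 5215, 5432 and 7033 CPM at 3, 4 to 5 and 6 to 7 genes in knockout replicate 3. The last of these rests on 10 cells. In thinned WT replicate 4 they went from 5325 CPM at 3 genes to 4787 CPM at 4 to 5, so the rise was not kept there. Ect2, the exchange factor of cell cleavage that is shut off in later rounds of DNA replication without division, stood at 36.5, 32.7, 16.4 and 1.22 CPM and at 35.0, 36.1, 25.3 and 0 CPM.

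Depth and cell cycle shares of gated cells were compared between labels over the libraries with at least 10 gated cells, 2 per label, where the smallest possible exact permutation p is 0.333. Median UMIs per gated cell were 10932 and 12192 in knockout replicates 1 and 3 and 15201 and 13645 in WT replicates 3 and 4. Both knockout values lay below both WT values (p = 0.333 by exact permutation, 0.666 adjusted over 4 measures). With all 7 libraries the means were 10534 ± 1888 (SD, n = 3) and 13660.4 ± 1797 (SD, n = 4), exact permutation p = 0.0857 (0.286 adjusted over the 4 measures). Median detected genes had p = 0.333, and the shares of UMIs in S phase genes (0.483% ± 0.113 and 0.391% ± 0.0310, SD, n = 2 each) and in G2/M genes (0.747% ± 0.0859 and 0.708% ± 0.0729) p = 0.667 each in the exact permutation test (0.667 adjusted).

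Between labels, 1 gene passed in gated cells. Counts were summed over the gated cells of each library and fitted with edgeR's quasi-likelihood test over the 7 libraries with the barcode list as a covariate. Of 5811 genes tested, 1 was higher under the knockout label (0.0172%) and 0 were lower (0%) at an adjusted p below 0.05, while 261 had an unadjusted p below 0.05 (4.49%) and DESeq2 called 1. The values of the groups did not overlap for 113 genes (1.94%). The sums of knockout replicate 2 and WT replicates 1 and 2 rest on 5, 8 and 8 cells, where 1 UMI is worth 21.3, 11.0 and 7.02 CPM.

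Serpina3g (chr12:104236245-104241939, plus strand, GRCm38), an intracellular serine protease inhibitor, was the gene that passed. Its normalised CPM was 234, 171 and 451 in knockout replicates 1, 2 and 3 and 87.1, 56.6, 103 and 205 in WT replicates 1 to 4. Knockout replicate 2 lay below WT replicate 4, so the groups overlapped, while within each barcode list the knockout values were higher. The log2 difference between labels came to 1.25 with SE 0.22 and an edgeR adjusted p of 0.0186. It lost the call without knockout replicate 1 (adjusted p = 0.83), knockout replicate 3 (0.343), WT replicate 3 (0.0717) or WT replicate 4 (0.387), and without a covariate (1.000).

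The 4 other genes with the smallest p among rises did not pass. Hist1h1c, a linker histone, stood at 107, 128 and 136 normalised CPM in knockout replicates 1, 2 and 3 and at 10.9, 14.1, 36.6 and 87.4 in WT replicates 1 to 4, with no overlap (log2 1.08, SE 0.27, edgeR adjusted p = 0.173). Sdf2l1, part of an endoplasmic reticulum chaperone complex, had a log2 fold change of 1.01 (adjusted p = 0.173). Gm47283, a gene model annotated on chromosome Y, had 0.81 (adjusted p = 0.204), and Tuba8 1.07 (adjusted p = 0.295). Gm47283 stood at 717, 770 and 275 normalised CPM in knockout replicates 1, 2 and 3 and at 392, 262, 362 and 226 in WT replicates 1 to 4. It was thus also counted in the libraries with Xist, and its level did not follow the Y-linked Ddx3y. The Tuba8 and Sdf2l1 values of knockout replicate 2 are 1 UMI each, and so is the Hist1h1c value of WT replicate 1.

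The 5 genes with the smallest p among falls were transcription factors and an adhesion protein, and none passed. Hlf stood at 142, 193 and 131 normalised CPM in knockout replicates 1, 2 and 3 and at 261, 325, 392 and 236 in WT replicates 1 to 4. All knockout values were below all WT values (log2 -1.01, SE 0.21, edgeR adjusted p = 0.083). Klf12, a zinc finger factor, had 30.8, 21.4 and 21.2 against 131, 56.6, 128 and 48.3 normalised CPM (log2 -1.42, SE 0.29, adjusted p = 0.083). Sox5 (log2 -1.41), Alcam, an adhesion protein (-1.16), and Tox, an HMG-box factor of T cell development (-1.70), each had an adjusted p of 0.0969 with overlapping groups. The Klf12 and Alcam values of knockout replicate 2 are 1 UMI each.

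**Figure D5:**
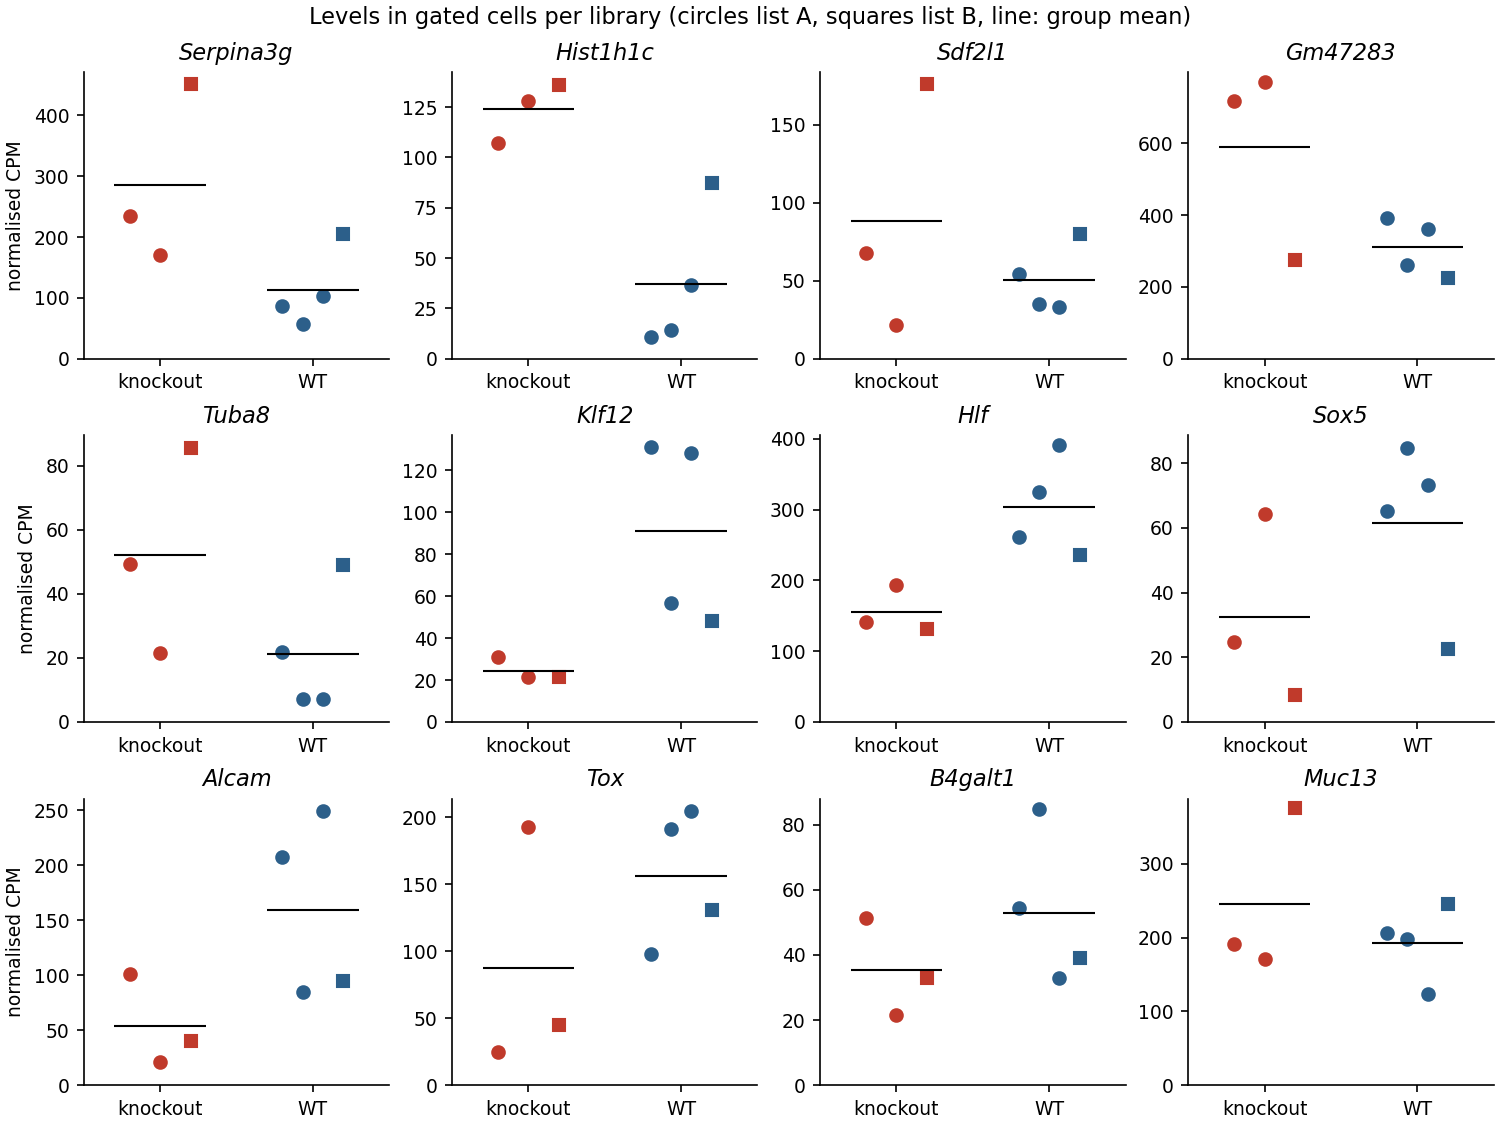
Normalised CPM (y axis) in gated cells of each library for the 10 genes with the smallest p between labels and for B4galt1 and Muc13. Circles are list A libraries, squares list B, red knockout and blue WT, and lines group means. Hlf, Klf12 and Hist1h1c show no overlap, and B4galt1 and Muc13 overlap. The Klf12 value of knockout 2 and the Hist1h1c value of WT 1 are 1 UMI each.

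Muc13 did not pass. It stood at 191, 171 and 376 normalised CPM in knockout replicates 1, 2 and 3 and at 207, 198, 124 and 245 in WT replicates 1 to 4. The highest library was knockout replicate 3 and the groups overlapped (log2 0.39, SE 0.22, edgeR adjusted p = 0.999).

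No member of the gene lists outside the gate passed between labels. Of the megakaryocyte genes tested, 0 of 8 granule genes (median log2 difference 0.12, beside 0.00 over all genes tested), 0 of 5 receptors (-0.09), 0 of 14 signalling genes (0.15), 0 of 9 cytoskeletal genes (0.05) and 0 of 14 transcription factors (0.04) passed by edgeR. Unadjusted p-values below 0.05, which 4.49% of all genes had, were found for Angpt1 (log2 -0.80) and Etv6 (-0.46) and for Tuba8, F2r (0.69), Tuba4a (0.56), Rasgrp2 (0.55) and Fermt3 (0.48). Of the stem cell genes 0 of 6 passed (median -0.33), and of the Wnt genes 0 of 11 (-0.27).

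The label effect was not shown to differ between gated and other cells. In the other kept cells the same edgeR fit called 177 of 14638 genes (1.21%), 79 higher and 98 lower under the knockout label, and Hlf was among them (log2 -1.14, SE 0.23, edgeR adjusted p = 0.0486). The edgeR test of the difference between the effect in gated cells and that in other cells of the same libraries called 0 of 5811 genes (0%), with 177 at an unadjusted p below 0.05. The smallest p belonged to Mmrn1, with a log2 fold change of -0.27 in gated and -1.72 in other cells (difference 1.36, SE 0.33, edgeR adjusted p = 0.222). Serpina3g had 1.25 in gated and 0.58 in other cells (difference 0.61, SE 0.23, edgeR adjusted p = 1.00).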

How the data were processed

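RNA was counted per cell in 7 libraries of LSK cells by 10x droplet sequencing. The deposited files hold raw UMI counts for 32285 genes, and the submitters' processing notes name Cell Ranger 7.0.0, Seurat 4.4.0 and the build mm10, with no role for each. Cells were kept and gated as the report states, with no doublet caller and no clustering. The members and gene lists were chosen with earlier results of these data known.

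Levels are counts per 1000000 UMIs of the summed cells (CPM). Ratios between gated and other cells used log2 of CPM plus 1, in libraries with at least 10 gated cells and genes with a pooled level of 10 CPM or more in gated or other cells, with no test. Label differences were fitted on summed counts with edgeR 4.0.16 (quasi-likelihood, TMM, filterByExpr, robust; R 4.3.3), Benjamini-Hochberg adjustment and a threshold of 0.05. The planned minimum of 10 gated cells left 4 libraries and 1 residual degree of freedom, and for that case the plan foresaw values with no test. The fit with a minimum of 5 cells (7 libraries, 4 degrees of freedom) is reported instead. All edgeR p-values between labels in gated cells rest on this departure from the plan, unless another setting is named. Shares and cell measures were compared by exact two-sided permutation tests (scipy 1.17.1), with exact 95% binomial intervals and a floor of 3 counts, both for counting error only. Alternatives included DESeq2 1.42.0. On simulated data the label fit recovered 180 of 180 genes changed by 2 on the log2 scale and called 14 unchanged ones among 5693 genes. The test of the difference between gated and other cells recovered 163 of 200 among 5811. The simulated counts had a fixed dispersion of 0.05 and no difference between barcode lists. Within gated and within other cells, all libraries had the same mean profile. The recovery therefore does not measure the power on the real sums.

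Named genes were the gate genes, members of the fixed lists, the 20 genes outside the gate with the highest smallest ratio at a pooled 50 CPM or more, the 5 smallest p-values per direction between labels at a mean of 20 CPM or more, B4galt1 and Muc13. The lowest genes were chosen after their values were seen. Some genes that the rule names are not reported here.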

Additional observations from a re-analysis of the deposited data

Results flagged for a closer look

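The share of gated cells in WT replicate 4, 4.19%, stood far from the other 3 WT libraries, beyond Dixon's 95% limit. It was 1 of 17 groups of values examined, and chance flags about 1 in 20. WT replicate 4 is the only WT library with barcode list B.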

How the results depend on the processing

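The share difference of 1.34 percentage points turned to -0.0888 within list A, ranged from -0.930 (without knockout replicate 3) to 2.69 when 1 library was left out, and was 2.18 with the replicate block (exact permutation p = 0.50, smallest possible 0.250). The count of genes at least 2-fold higher in the gate, 30, was 13 with 2 gate genes, 8 with a pseudocount of 10 CPM, 80 with at least 20 gated cells per library, 14 after thinning to 3000 UMIs, 1 at 4-fold, and 33 to 80 when 1 library was left out. The single edgeR label call became 0 without a covariate (also with at least 10 gated cells), in list A alone, without cells above the 95th percentile of UMIs, or with Xist detection as a second covariate. It became 2 without cells holding Dntt, Elane or Hba-a1, 3 with the replicate block, 18 with 2 gate genes, 38 without a gene filter, and 0 to 12 when 1 library was left out. It became 21 with 4 gate genes and 76 with at least 10 gated cells, fits of 4 libraries with 1 residual degree of freedom each. Serpina3g kept its sign in all 20 alternatives and passed in 9, with adjusted p from 1.11e-04 to 1.000. B4galt1 turned to 0.20 with at least 10 gated cells and no covariate. The G2/M difference of 0.0382 percentage points ranged from -0.0226 to 0.0989 when 1 library was left out, with -0.0134 without WT replicate 4, and was 0.110 with at least 5 gated cells per library. The cause of these changes was not tested. Same-numbered libraries correlated at 0.201, 0.259 and -0.299, so the numbers were not taken as pairs. A replicate block for depth and cell cycle shares was not run, since only replicate 3 had 10 gated cells under both labels. A minimum of 20 gated cells was not run for the label fit, since it leaves 1 WT library. The Xist covariate and the fit with 10 cells and no covariate were added after seeing the data. Sums over 5 to 36 cells limit the list A libraries.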
